A study of Mus musculus with 8 samples.

Results

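The genes described here are 6 matrix metalloproteinases (Mmp2, Mmp3, Mmp9, Mmp14, Mmp15 and Mmp19) and the 4 tissue inhibitors of metalloproteinases (Timp1, Timp2, Timp3 and Timp4). They were chosen by symbol, with earlier results of these data known, and all 10 were found among the 16686 genes of the table. The gene lists below were chosen in the same way. Shares over all tested genes are therefore a background for their counts and test no enrichment. RNA was sequenced from the tibialis anterior (TA), a fast-twitch muscle of the lower hindlimb, of 4 WTOld and 4 C2-/-Old mice. All 8 were males on the FVBN background, labelled 22 months of age, with 1 library per mouse. The housing description in the same labels gives 2 months instead, while the dissection entry and the study's methods place these mice in old age. WTOld mice were wild type. C2-/-Old mice lacked Mybpc2, the gene for fMyBP-C, the myosin binding protein of the thick filaments in fast-twitch fibres, because a Neo cassette flanked by LoxP sites replaced its second to twenty-second exons. The deletion was made in the germ line and was therefore present in every cell type, from birth, and p-values here measure the spread between mice of 1 age, sex and strain.

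Matrix metalloproteinases are zinc enzymes that cut collagens, laminins, proteoglycans and other proteins of the extracellular matrix, and most are made as inactive proenzymes. TIMPs block the active site of these enzymes, and Timp2 can also bridge the membrane-bound Mmp14 to pro-Mmp2 so that pro-Mmp2 is cut and activated. In skeletal muscle these genes are known for turnover of the connective tissue around the fibres, in which fibroblasts and fibro-adipogenic progenitors are the main sources of Mmp2 and of fibrillar collagen. Transcript levels show neither proenzyme activation nor enzyme activity.

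Promoter sequences are shown for Mmp14, a membrane-bound enzyme, and for the 2 inhibitors that the results turn on, with that of Mmp3 as a contrast because its transcript was close to the detection floor. Each is the 250 bases before the RefSeq start on GRCm38.p6, written 5′ to 3′ on the strand of the gene. Capitals mark the GC box (GGGCGG), the AP-1 motif (TGANTCA), the TATA box (TATAAA) and the CCAAT box (CCAAT), searched on both strands. RefSeq entries were matched for 7 of the 10 genes and not for Mmp2, Mmp9 and Mmp19. The windows are chr14:54431348-54431597 (plus strand) for Mmp14, chr11:118355412-118355661 (minus strand) for Timp2, chr6:115252206-115252455 (minus strand) for Timp4 and chr9:7445572-7445821 (plus strand) for Mmp3.
Mmp14: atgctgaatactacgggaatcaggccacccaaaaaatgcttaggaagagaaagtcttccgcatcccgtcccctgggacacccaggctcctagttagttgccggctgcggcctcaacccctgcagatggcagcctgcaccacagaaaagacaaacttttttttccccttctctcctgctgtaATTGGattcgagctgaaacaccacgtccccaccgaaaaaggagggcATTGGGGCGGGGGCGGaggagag
Timp2: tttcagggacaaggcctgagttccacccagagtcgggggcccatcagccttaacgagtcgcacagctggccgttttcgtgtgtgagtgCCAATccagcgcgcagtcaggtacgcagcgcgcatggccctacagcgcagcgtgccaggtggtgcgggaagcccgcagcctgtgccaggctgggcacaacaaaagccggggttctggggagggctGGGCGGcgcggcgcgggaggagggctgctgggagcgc
Timp4: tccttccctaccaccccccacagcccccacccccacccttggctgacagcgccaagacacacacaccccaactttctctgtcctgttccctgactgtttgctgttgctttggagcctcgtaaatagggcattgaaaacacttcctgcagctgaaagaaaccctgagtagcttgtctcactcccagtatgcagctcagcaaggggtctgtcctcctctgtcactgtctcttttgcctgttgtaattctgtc
Mmp3: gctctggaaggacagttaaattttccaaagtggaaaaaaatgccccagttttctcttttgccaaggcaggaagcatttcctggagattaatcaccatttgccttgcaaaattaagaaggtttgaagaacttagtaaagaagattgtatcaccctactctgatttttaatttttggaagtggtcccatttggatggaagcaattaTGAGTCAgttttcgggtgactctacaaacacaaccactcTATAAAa
The Mmp14 window held 2 GC boxes and 2 CCAAT boxes, 1 pair of which shares a base. The Timp2 window held 1 GC box and 1 CCAAT box and was the richer in G and C, at 68.0% against a median of 52.4% over all promoters. None of the 4 motifs was found in the Timp4 window, into which the 5′ end of the gene as deposited extends. The Mmp3 window held 1 AP-1 motif and 1 TATA box and was 37.6% G and C. The window of Timp1, whose transcript was also scarce, is not shown and held 1 GC box and 1 CCAAT box, as that of Timp2 did. Of 32851 RefSeq promoter windows of this length, 32.74% held a GC box, 33.85% a CCAAT box, 6.75% an AP-1 motif and 12.37% a TATA box. Such a match describes letters and shows no binding.

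Total expected counts were between 25425993 and 29747692 per mouse. Mybpc2 was between 4964 and 7392 CPM (TMM-scaled counts relative to the library total) in the WTOld mice and between 3.85 and 38.3 CPM in the C2-/-Old mice, highest in mouse 3 (log2 fold change −8.82 ± 0.94 SE, adjusted p = 0.00750, edgeR quasi-likelihood test). Summed CPM of 6 muscle fibre markers was between 139590 and 181510, and all 6 were detected. Libraries stood apart within both groups. The 7 immediate early genes, which are induced within minutes of a stimulus, summed to 1881, 904 and 1269 CPM in WTOld mice 4 and 2 and C2-/-Old mouse 2, and to between 287 and 534 CPM in the others. Fos was 245, 70.9 and 123 CPM in those 3 mice and at most 7.80 CPM elsewhere, and Egr1 was 532, 217 and 347 CPM against at most 41.5 CPM. The 7 neutrophil markers, of which Mmp8 is one, summed to 48.6 CPM in WTOld mouse 2 and to at most 4.96 CPM in any other mouse.

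Mmp2 and Timp2 were the tested members whose values did not overlap between the genotypes, and both were higher in C2-/-Old muscle. Mmp2 was 1.70-fold and Timp2 1.54-fold higher. Mmp14 was 1.35-fold higher and Timp4 was lower, at 0.544 of the WTOld level, but both overlapped between the groups. None of the 9 genes that passed the filter on low counts reached an adjusted p under 0.05 in edgeR. Limma-voom also gave 0, whereas DESeq2 gave 1, Mmp2. At an unadjusted p under 0.05, 3 of the 9 were higher and 1 was lower, where 3.38% and 1.91% of all 12542 tested genes were higher and lower. The 3 were Mmp2, Timp2 and Mmp14, and the 1 was Timp4. Mmp14 (unadjusted p = 0.0487 in edgeR) and Timp4 (0.0236) were above 0.05 in limma-voom, at 0.0533 and 0.0868. Without C2-/-Old mouse 1 or WTOld mouse 1, 2 of the 9 reached an unadjusted p under 0.05 in edgeR, and 3 or 4 did without any other mouse. Over all tested genes, 506 to 983 reached it with each mouse left out, against 663 with all mice. Groups did not overlap for 2 members that were higher and 0 that were lower, against 2.03% and 1.36% of all tested genes. Only 4 genes, or 0.0319% of those tested, passed over 1.5-fold with an adjusted p under 0.05. Of the 9, 5 were higher and 4 lower (55.6% higher, against 45.8% of all tested genes), and their median log2 fold change was 0.13 against −0.02.

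**Figure D1:**
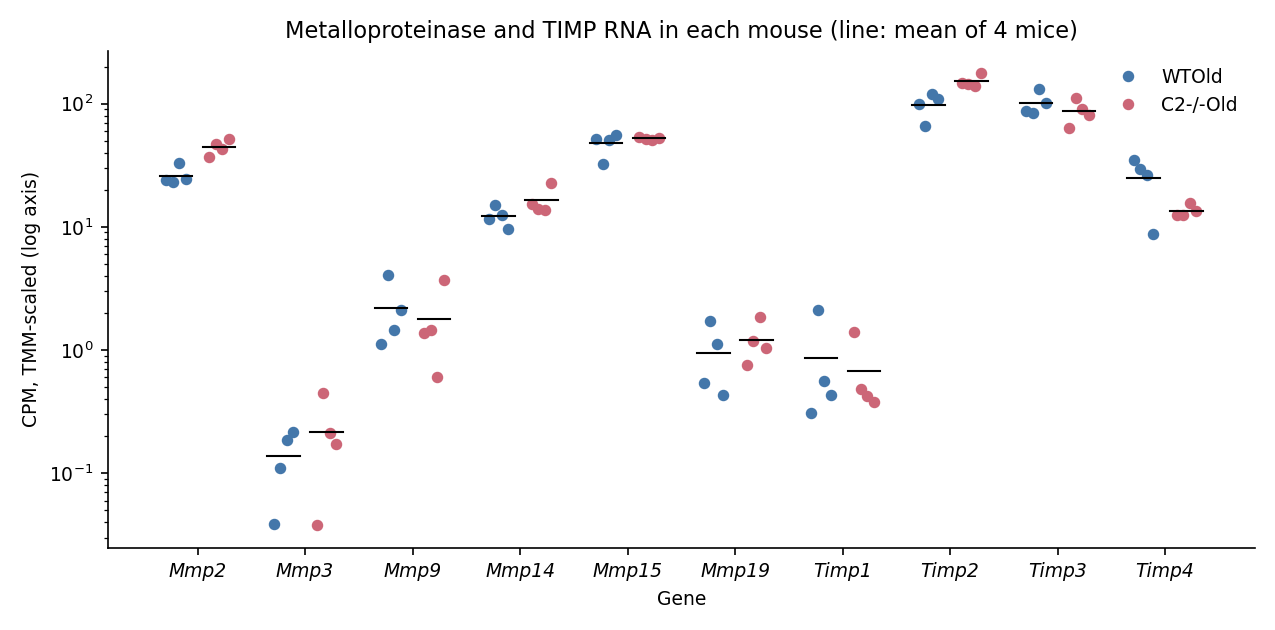
TMM-scaled CPM of the 10 genes in each mouse on a log axis, with WTOld in blue, C2-/-Old in red, 1 point per mouse and a line at each group mean. The groups stand apart for Mmp2 and Timp2, while WTOld mouse 4, at 8.80 CPM, lies below the C2-/-Old mice for Timp4.

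Among the enzymes, Mmp2 encodes gelatinase A, a secreted protease of basement membrane collagen and denatured collagen (gene ID 17390, chr8:92826268-92853421, plus strand, GRCm38.p6). Its level was 23.8, 23.0, 32.9 and 24.5 CPM in WTOld mice 1 to 4 and 36.9, 46.8, 42.5 and 51.5 CPM in C2-/-Old mice 1 to 4. Every C2-/-Old mouse was above every WTOld mouse, of which mouse 3 came nearest. The means were 26.1 ± 4.63 and 44.4 ± 6.23 CPM (SD, n = 4 each). The log2 fold change was 0.77 ± 0.15 (SE), with adjusted p = 0.391 in edgeR. The exact two-sided permutation test over mice gave p = 0.0286, the smallest that 4 against 4 allows. DESeq2 gave the same log2 fold change and an adjusted p = 0.00387, the lowest of a range that reached 0.953 among the 17 alternatives.

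Mmp14 encodes a collagenase anchored in the cell membrane that cuts fibrillar collagen and activates pro-Mmp2 (gene ID 17387, chr14:54431598-54442456, plus strand). It was at 11.6, 14.96, 12.4 and 9.59 CPM in the WTOld mice and 15.3, 14.02, 13.8 and 22.6 CPM in the C2-/-Old mice. WTOld mouse 2 lay within the C2-/-Old range, and C2-/-Old mouse 4 was well above the others. The log2 fold change was 0.43 ± 0.19 (SE, edgeR adjusted p = 0.937), and the exact permutation p was 0.0857. With each mouse left out in turn, the log2 fold change was between 0.24 (without C2-/-Old mouse 4) and 0.56 (without WTOld mouse 2).

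Mmp15 encodes a related membrane-anchored enzyme (gene ID 17388, chr8:95352296-95374293, plus strand). It was at 51.5, 32.2, 51.1 and 55.2 CPM in the WTOld mice and 53.8, 51.8, 50.5 and 52.6 CPM in the C2-/-Old mice. Apart from the low WTOld mouse 2, all mice were within 50.5 and 55.2 CPM, and the log2 fold change of 0.13 ± 0.16 (edgeR adjusted p = 0.976, exact permutation p = 0.629) was −0.01 without that mouse. WTOld mouse 2 was thus the lowest for Mmp15 and the highest of its group for Mmp14.

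The secreted enzymes Mmp9, Mmp19 and Mmp3 were scarce. Mmp9, gelatinase B, which is abundant in neutrophils, was at 1.12, 4.09, 1.46 and 2.10 CPM in WTOld and 1.36, 1.45, 0.603 and 3.71 CPM in C2-/-Old mice (log2 fold change −0.30 ± 0.54, edgeR adjusted p = 0.987). The highest value was in WTOld mouse 2, which also had the highest neutrophil marker sum. C2-/-Old mouse 4 came next although its neutrophil marker sum was the lowest, 0.624 CPM. Without WTOld mouse 2 the log2 fold change of Mmp9 was 0.20, which turns its direction. Mmp19, which cuts basement membrane proteins, was at 0.540, 1.71, 1.12 and 0.434 CPM in WTOld and 0.757, 1.19, 1.84 and 1.04 CPM in C2-/-Old mice (log2 fold change 0.34 ± 0.46, edgeR adjusted p = 0.980). The groups overlapped, and the log2 fold change was 0.06 without C2-/-Old mouse 3 and 0.80 without WTOld mouse 2. Mmp19 shares 789 of its 3533 exon bases with the antisense gene Tmem198b, which was at 5.32 and 5.29 CPM on average in WTOld and C2-/-Old, and the strand setting of the counting is not stated, so its value is uncertain. Mmp3, a stromelysin that cuts matrix proteins and other proenzymes, had 1, 3, 5 and 6 counts in WTOld and 1, 12, 6 and 5 counts in C2-/-Old mice. It did not pass the filter, and with no filter its edgeR adjusted p was 0.910, so no difference was detectable at this depth, at which 3 counts were worth between 0.104 and 0.116 CPM.

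Among the inhibitors, Timp2 had the highest level per transcript length (gene ID 21858, chr11:118301061-118355411). The table lists it on the plus strand, whereas GENCODE places it on the minus strand. It was at 99.1, 65.7, 119 and 109.7 CPM in WTOld and 146, 144, 139 and 176 CPM in C2-/-Old mice. Every C2-/-Old mouse was above every WTOld mouse, and WTOld mouse 2 was the lowest. Means were 98.4 ± 23.2 and 151 ± 16.8 CPM (SD, n = 4 each). The log2 fold change was 0.62 ± 0.18 (SE, edgeR adjusted p = 0.647), and the exact permutation p was 0.0286. Timp2 passed an unadjusted p of 0.05 with each mouse left out in turn, with a log2 fold change between 0.48 and 0.73.

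Timp4, the inhibitor best known from heart, vessels and fat, had the lower mean in C2-/-Old muscle (gene ID 110595, chr6:115238459-115252303, minus strand). It was at 34.8, 29.3, 26.6 and 8.80 CPM in WTOld and 12.5, 12.5, 15.7 and 13.3 CPM in C2-/-Old mice. Of the WTOld mice, 3 lay above all C2-/-Old mice and mouse 4 lay below them all. The means were 24.9 ± 11.3 and 13.5 ± 1.51 CPM (SD, n = 4 each), and the log2 fold change was −0.88 ± 0.33 (edgeR adjusted p = 0.857). The exact permutation p was 0.143. Without WTOld mouse 4 the log2 fold change was −1.15, with an edgeR adjusted p of 0.0490. That mouse also had the highest sum of immediate early genes, whose part in the result was not tested beyond a fit with their level as covariate, in which Timp4 was at −1.03 ± 0.32. Limma-voom gave −0.71 ± 0.38. Timp4 shares 90 of its 5894 exon bases with the antisense gene Syn2, which was at most 0.390 CPM in any mouse.

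Timp3, which binds to the matrix and also inhibits ADAM and ADAMTS proteases (gene ID 21859, chr10:86300412-86349505, plus strand), ranked below Timp2 per transcript length. It was at 87.2, 83.6, 132 and 100.7 CPM in WTOld and 63.5, 112, 90.2 and 80.2 CPM in C2-/-Old mice, with wide overlap (log2 fold change −0.22 ± 0.19, edgeR adjusted p = 0.968, exact permutation p = 0.400). With each mouse left out it was between −0.37 (without C2-/-Old mouse 2) and −0.06 (without WTOld mouse 3). Timp3 shares 1733 of its 8144 exon bases with the antisense gene Syn3, which was itself at 0.388 and 0.509 CPM on average. Timp1, a secreted inhibitor that is induced in injured and inflamed tissue, was at 0.308, 2.12, 0.560 and 0.434 CPM in WTOld and 1.40, 0.484, 0.426 and 0.381 CPM in C2-/-Old mice. In each group 1 mouse stood above the others, and the log2 fold change of −0.35 ± 0.66 (edgeR adjusted p = 0.987) was 0.62 without WTOld mouse 2. No copy of a member with 99% identity or more over 400 bases was found among the reference transcripts.

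**Figure D2:**
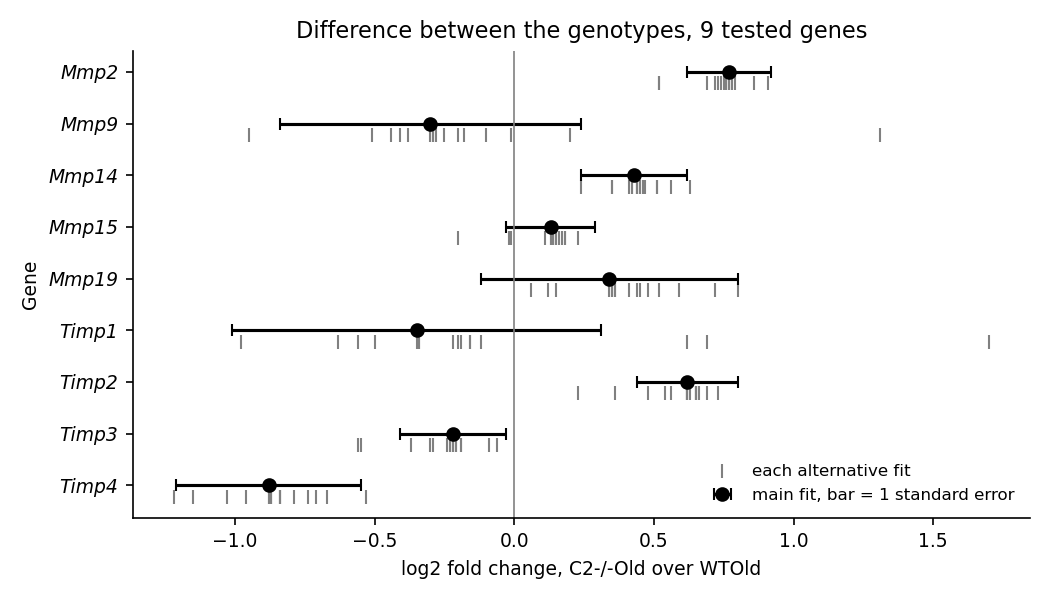
log2 fold change of C2-/-Old over WTOld for the 9 tested genes, with points and bars for the edgeR fit and its standard error and grey ticks for each of 17 alternative fits. The ticks of Mmp2 (0.52 to 0.91), Timp2 (0.23 to 0.73), Mmp14 (0.24 to 0.63) and Mmp19 (0.06 to 0.80) stay above 0. Those of Timp4 (−1.22 to −0.53) and Timp3 (−0.56 to −0.06) stay below 0, while those of Mmp9, Mmp15 and Timp1 lie on both sides.

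Levels were compared between genes per length, as CPM per kilobase of the longest GENCODE transcript. In that order the medians over 8 mice were 34.8 for Timp2, 18.8 for Timp3, 11.3 for Mmp2, 10.1 for Mmp15, 4.29 for Mmp14, 2.64 for Timp4, 0.520 for Timp1, 0.458 for Mmp9, 0.318 for Mmp19 and 0.100 for Mmp3. Each gene overlapped with its neighbour in this order over the 8 mice, and the order differed between the genotypes. In WTOld the mean of Mmp15 (9.25) was above that of Mmp2 (8.47) and that of Timp4 (4.53) above that of Mmp14 (3.75), whereas in C2-/-Old Mmp2 (14.4) was above Mmp15 (10.2) and Mmp14 (5.07) above Timp4 (2.46). The place of Timp4 rests on the transcript length of 5496 bases, since in the authors' TPM its median was 20.1, close to Mmp2 at 21.2 and Mmp15 at 22.6. The TPM median of Mmp14 was lower, at 6.63, so the order of Timp4 and Mmp14 depends on the scale.

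On the same per-length scale, the 6 enzymes summed to 22.5 ± 2.16 in WTOld and 30.7 ± 3.43 in C2-/-Old mice (SD, n = 4 each), without overlap, although in the authors' TPM the sums overlapped. The 4 inhibitors summed to 53.4 ± 9.17 and 62.3 ± 4.89, with overlap. The inhibitors made up 70.1% ± 1.61 of the level of all 10 genes in WTOld and 67.0% ± 1.13 in C2-/-Old mice. Their share was 70.3%, 68.1%, 72.0% and 70.1% in the WTOld mice and 67.0%, 68.0%, 67.6% and 65.5% in the C2-/-Old mice, so WTOld mouse 2 exceeded C2-/-Old mouse 2 only narrowly. Timp2 made up 49.3% ± 6.20 of the inhibitors in WTOld and 65.5% ± 5.34 in C2-/-Old, and Mmp2 made up 37.4% ± 3.25 and 46.9% ± 2.79 of the enzymes, each without overlap. The ratio of Timp2 to Mmp2 overlapped between the genotypes, at 3.13 ± 0.587 and 2.85 ± 0.310. Shares of the inhibitors depend on the scale. In the authors' TPM Timp2 made up 40.2% of them in WTOld and 59.0% in C2-/-Old, also without overlap. Timp4 made up 26.4% and 13.9% in TPM, against 8.75% and 3.97% per length, with overlap on both scales. These shares contain the differences given above and were not tested separately.

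**Figure D3:**
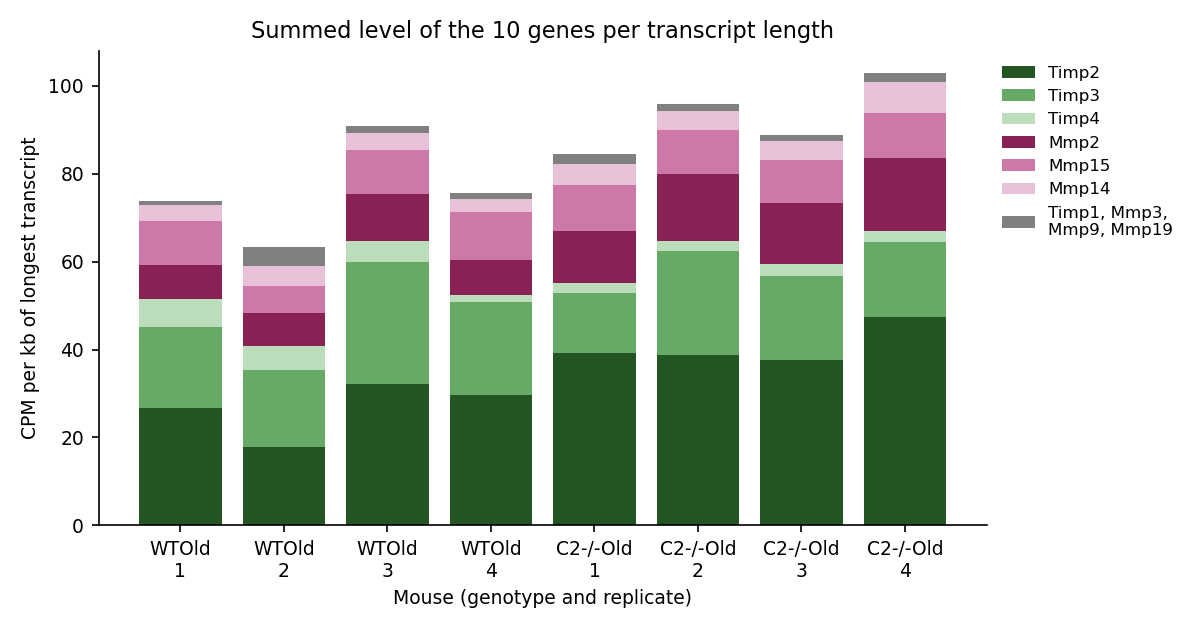
CPM per kilobase of the longest transcript for the 10 genes, stacked for each of the 8 mice, with TIMPs in green, metalloproteinases in purple and the 4 scarce genes in grey. Timp2 (dark green) and Mmp2 (dark purple) take larger shares of their families in C2-/-Old mice, and Timp4 (light green) is thinner there and in WTOld mouse 4.

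Markers of connective tissue cells differed in the same direction as Mmp2 and Timp2. The 8 fibroblast and fibro-adipogenic markers summed to 373, 344, 385 and 278 CPM in WTOld and 410, 465, 458 and 430 CPM in C2-/-Old mice, without overlap. C2-/-Old was the higher group for each of the 8, and 3 reached an unadjusted p under 0.05. Of all tested genes, 45.8% were higher in C2-/-Old, and 3.38% were higher at that p. Pdgfra, the receptor that marks fibro-adipogenic progenitors, was 9.17 ± 2.34 and 11.9 ± 1.57 CPM (SD, n = 4 each). In whole muscle, more cells of a type and more RNA per cell cannot be told apart. A fit with the fibroblast marker level (the mean log2 CPM of the markers) as a covariate was added after seeing the data. In it the log2 fold change was 0.52 ± 0.24 for Mmp2 and 0.23 ± 0.25 for Timp2. In the same fit it was 0.63 ± 0.31 for Mmp14 and −1.22 ± 0.50 for Timp4. The marker level itself separates the genotypes, so genotype and marker level cannot be told apart in these mice. Of the 9 genes, 1 (Timp4) reached an unadjusted p under 0.05 in it.

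Tendon markers, unlike the fibroblast markers, overlapped between the genotypes in summed CPM. Their median log2 fold change was larger, at 1.22 against 0.43 for the fibroblast markers. Of the 8 tendon markers tested, 7 were higher and 1 was lower, and 2 reached an unadjusted p under 0.05. The shares of all tested genes were 45.8% higher, and 3.38% higher at that p. The summed CPM of all 9 was 66.6, 59.7, 197 and 126 in WTOld and 100.3, 265, 137 and 277 in C2-/-Old mice. Tnmd, a tendon marker gene among the 7 that were higher, was 0.815 ± 0.573 and 2.20 ± 1.09 CPM. With the tendon marker level as covariate, Mmp2 was at 0.52 ± 0.14, Timp2 at 0.36 ± 0.16 and Timp4 at −0.53 ± 0.40. Timp3 was at −0.55 ± 0.17 in that fit, against −0.22 without the covariate. The 2 members that reached an unadjusted p under 0.05 in it were Mmp2 and Timp3. Pericyte and smooth muscle markers overlapped in summed CPM, but their mean log2 CPM was between 5.32 and 5.75 in WTOld and between 5.76 and 5.96 in C2-/-Old mice, without overlap. Macrophage markers summed to between 22.8 and 51.1 CPM in WTOld and between 36.5 and 62.8 CPM in C2-/-Old mice. Their part in the results was not tested.

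**Figure D4:**
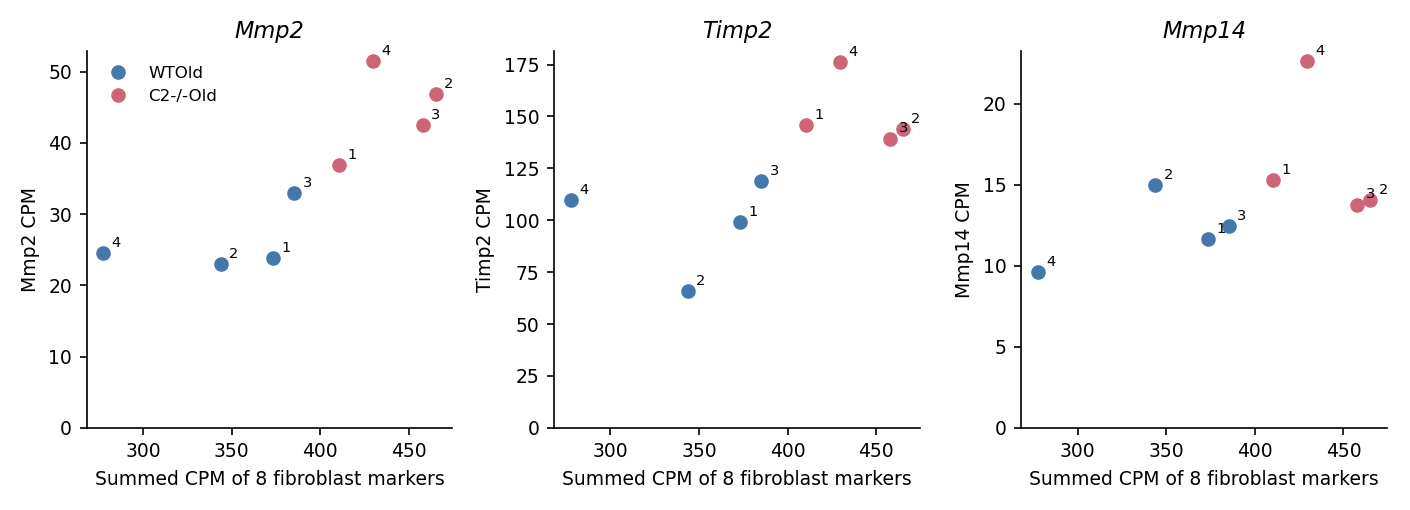
CPM of Mmp2, Timp2 and Mmp14 (vertical axes, from 0) against the summed CPM of 8 fibroblast markers (horizontal axis) in each mouse, numbered by replicate. C2-/-Old mice (red) lie at higher marker sums, from 410 to 465 CPM, than WTOld mice (blue), from 278 to 385 CPM, and the Mmp2 and Timp2 values are higher there too. Most of each sum is Dcn.

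The members were also compared by how they varied over the 8 mice, as a description in which the genotype and the library are shared by both genes of a pair. Mmp2 and Timp2 had the highest correlation of log2 CPM of any pair of tested members (Pearson r = 0.88, Spearman rho = 0.93). Mmp2 and Mmp14 were at r = 0.66 and rho = 0.50. The tested genes most like Mmp2 were Lrrc75a (r = 0.979), Prelp, a leucine-rich proteoglycan of the matrix (r = 0.978), and Pam, a peptide-amidating enzyme (r = 0.975). For Timp2 they were the transporter Slc16a7 (r = 0.991), the stromal cell surface protein Cd248 (r = 0.984) and Rcn3, a protein of the endoplasmic reticulum (r = 0.979). For Mmp14 they were the microfibril gene Mfap5 (r = 0.956), Tubb2b (r = 0.940) and Rad1 (r = 0.930). For Timp4 they were Cyp4f17 (r = 0.941), the fatty acid transporter Cd36 (r = 0.935) and Palmd (r = 0.913). These genes were picked as the highest of 12542, so a high r is built into the choice.

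Of the other 12 Mmp genes in the table, 5 were tested, 3 of them higher and 2 lower (60.0% higher, against 45.8% of all tested genes). Of the 5, 0 reached an unadjusted p under 0.05 in edgeR, limma-voom or DESeq2. Without C2-/-Old mouse 4 this count was 1, where 506 of all 12664 tested genes reached that p. Without WTOld mouse 3 it was 2, where 983 of all 12682 did. The 2 most highly counted were Mmp11, a stromal enzyme, at 3.71 ± 1.14 and 4.72 ± 1.05 CPM, and Mmp28, at 2.07 ± 0.819 and 3.05 ± 0.960 CPM in WTOld and C2-/-Old (SD, n = 4 each). Mmp8, the neutrophil collagenase, was at 2.33 CPM in WTOld mouse 2 and at most 0.530 CPM in the others. Untested Mmp27 had 4, 4, 8 and 6 counts in WTOld and 12, 11, 13 and 9 counts in C2-/-Old mice. It was singled out after its values were seen, because the groups did not overlap.

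Of the 27 listed activators and other inhibitors, 24 were in the table and 19 were tested. There 11 were higher and 8 lower (57.9% higher, against 45.8% of all tested genes), and the median log2 fold change was 0.05 against −0.02. At an unadjusted p under 0.05, 3 were higher and 0 lower, where 3.38% and 1.91% of all tested genes were higher and lower. Without C2-/-Old mouse 2, 5 reached that p, where 586 of all 12659 tested genes did. Lrp1, the endocytic receptor that clears complexes of proteases and inhibitors, was 40.5 ± 9.04 and 61.1 ± 4.64 CPM in WTOld and C2-/-Old (log2 fold change 0.59 ± 0.16, edgeR adjusted p = 0.608), without overlap. Thbs2, a matricellular protein that binds Mmp2 for uptake by Lrp1, was at 0.88 ± 0.28 (edgeR adjusted p = 0.755). Cd44, a hyaluronan receptor that can hold proteases at the cell surface, was at 0.47 ± 0.15 (edgeR adjusted p = 0.755), without overlap. The most highly counted were Bsg, which induces metalloproteinases, at −0.37 ± 0.17 (edgeR adjusted p = 0.965), and the serpin Serpine2 at 0.04 ± 0.17 (edgeR adjusted p = 0.996).

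ADAM and ADAMTS proteases are relatives of the metalloproteinases, several of which TIMPs also inhibit. Of 21 listed genes 19 were tested, 14 higher and 5 lower, with a median log2 fold change of 0.12. That is 73.7% higher, against 45.8% of all tested genes, whose median was −0.02. In this list the aggrecanase Adamts5 alone reached an unadjusted p under 0.05 (9.50 ± 0.835 and 13.2 ± 3.98 CPM, log2 fold change 0.47 ± 0.20, edgeR adjusted p = 0.918), with overlap. Of all tested genes, 3.38% were higher at that p. The count of 1 became 0 without C2-/-Old mouse 1 or 3 or WTOld mouse 1, and 2 without C2-/-Old mouse 2 or WTOld mouse 2 or 3. Over all tested genes the count was 506 to 983 with each mouse left out, against 663 with all mice. The most highly counted of the list, Adam9 and Adam15, were at 0.12 ± 0.12 and −0.03 ± 0.11.

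Genes of matrix proteins that these enzymes cut were mostly higher in C2-/-Old muscle. All 21 listed were tested, and 19 were higher and 2 lower (90.5% higher, against 45.8% of all tested genes). At an unadjusted p under 0.05, 9 were higher and 0 lower, where 3.38% and 1.91% of all tested genes were higher and lower. None of the 21 had an adjusted p under 0.05, and their median log2 fold change was 0.38 against −0.02. Col1a1, a chain of the main fibrillar collagen, was 42.0, 22.1, 70.7 and 68.0 CPM in WTOld and 96.2, 87.0, 157 and 159 CPM in C2-/-Old mice. All C2-/-Old mice were above all WTOld mice, and the log2 fold change was 1.30 ± 0.35 (edgeR adjusted p = 0.608). The fibrillar chains Col1a2 and Col3a1 were at 1.12 ± 0.36 (edgeR adjusted p = 0.755) and 1.38 ± 0.45 (edgeR adjusted p = 0.755). Col5a1 and Col5a2, chains of a collagen that starts fibrils, were at 0.77 ± 0.20 (edgeR adjusted p = 0.608) and 0.93 ± 0.22 (edgeR adjusted p = 0.571), and all 4 were without overlap, although for Col5a1 WTOld mouse 3 (22.630 CPM) and C2-/-Old mouse 1 (22.635 CPM) all but met. The most highly counted were Dag1, the dystroglycan receptor, at −0.18 ± 0.12 (edgeR adjusted p = 0.968), and the proteoglycan Dcn at 0.32 ± 0.13 (edgeR adjusted p = 0.882). Dcn is also a fibroblast marker here. With the tendon marker level as covariate 3 of the 21 reached an unadjusted p under 0.05, and with the fibroblast marker level 0 did, from the same 8 mice. The count was 13 without WTOld mouse 3 and 6 without WTOld mouse 4. Calls over all genes moved too. At that p there were 983 of 12682 tested genes without WTOld mouse 3 and 614 of 12691 without WTOld mouse 4. With all mice there were 663 of 12542.

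**Figure D5:**
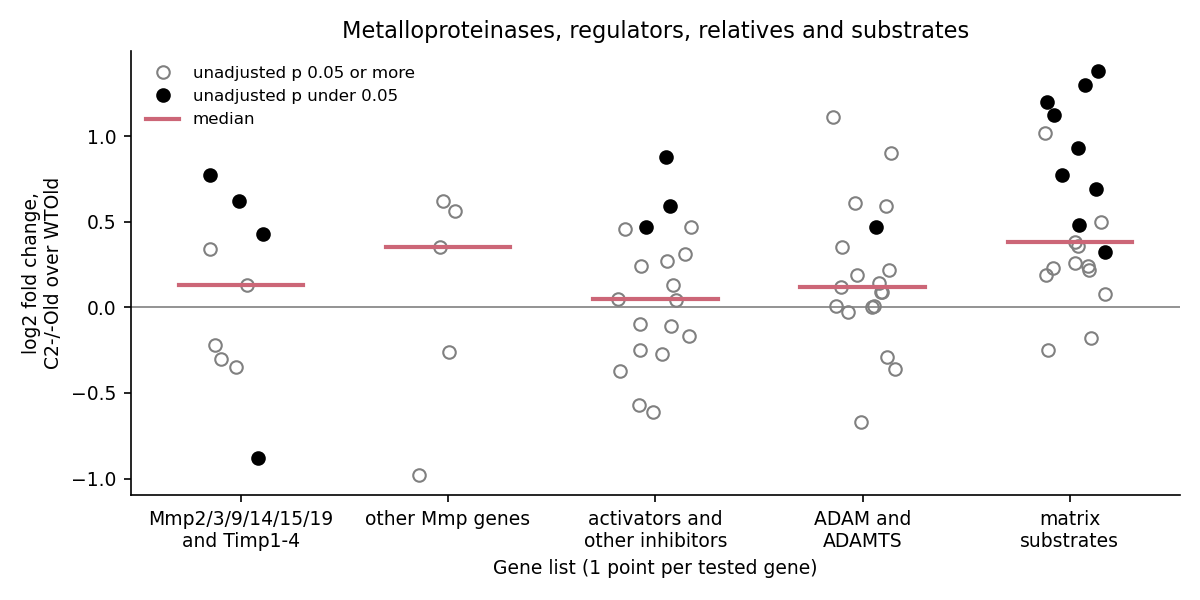
log2 fold change of C2-/-Old over WTOld for every tested gene of 5 lists, with filled points at an unadjusted p under 0.05, open points above it and a red line at the median. The median is 0.13 for the 9 members and 0.38 for the 21 matrix substrates, of which 9 are filled, against −0.02 over all tested genes.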

How the data were processed

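TA muscle RNA of 8 mice was analysed from 1 deposited table. Per the methods, mRNA was enriched with oligo(dT), reads were aligned with HISAT to GRCm38.p6 and counted with featureCounts, and the submitters' processing notes also name Bowtie2 and DESeq2. The authors deposited expected counts per gene, of which 5.50% to 6.53% per mouse are not whole, and TPM, which were used to rank levels and for the share of TIMPs. The 8 FPKM columns and the columns of the authors' own DESeq2 comparison (fold changes and p-values) were not used. Of 16687 rows, 1 without a gene ID was left out, and 24 symbols were restored from gene IDs.

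Counts were rounded and scaled by TMM factors (0.929 to 1.03), and edgeR's filter left 12542 genes. The test was edgeR's quasi-likelihood F test (edgeR 4.0.16, R 4.3.3) of genotype with Benjamini-Hochberg adjustment over all tested genes. The standard error is the log2 fold change divided by the root of F, and log2 CPM has a prior count of 2. Transcript lengths and overlaps came from GENCODE vM21 and promoters from RefSeq, both on GRCm38. Scripts were tested on simulated data, and exact permutation tests over mice were made in scipy 1.17.1. Floors of 3 counts cover counting error only. Alternatives were RLE scaling, limma-voom (limma 3.58.1), DESeq2 1.42.0, no filter, at least 10 counts in every mouse, a replicate block, each mouse left out and marker levels as covariates. A marker level in these fits is the mean log2 CPM of the tested genes of its list.

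The members and lists were chosen with earlier results of these data known. Named are all members, genes of each list with an unadjusted p under 0.05 (at most 5, smallest p first) and its 2 most highly counted, the 3 genes most like each tested member, Mybpc2, Fos, Egr1, Tnmd and Pdgfra. A gene that this rule names is not reported here. Other exceptions are named where they occur, and Mmp8 and genes that overlap a member are given for the result they touch.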

Additional observations from a re-analysis of the deposited data

Results flagged for a closer look

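Within each group of 4 mice, the gap between an extreme mouse and its nearest neighbour was compared with the group's range by Dixon's criterion. Chance passes about 1 in 20 groups, and 20 groups were examined, 10 genes in 2 genotypes. The 4 values past the criterion were Mmp2 in WTOld mouse 3 (32.9 CPM), Mmp14 in C2-/-Old mouse 4 (22.6 CPM), Timp1 in WTOld mouse 2 (2.12 CPM) and Timp1 in C2-/-Old mouse 1 (1.40 CPM). Without WTOld mouse 3 the log2 fold change of Mmp2 was 0.91, and without C2-/-Old mouse 1 that of Timp1 was −0.98. The low Timp4 value of WTOld mouse 4 did not pass the criterion.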

How the results depend on the processing

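Of 152 member values under 17 alternative fits (Timp1 was not tested at a minimum of 10 counts in every mouse), 142 kept direction and side of the adjusted threshold, 8 turned direction and 2 newly passed it (Mmp2 in DESeq2 and Timp4 without WTOld mouse 4). Reversed values were 1.31 (fibroblast marker level as covariate) and 0.20 (without WTOld mouse 2) for Mmp9, −0.02 (tendon marker level), −0.20 (fibroblast marker level) and −0.01 (without WTOld mouse 2) for Mmp15, and 0.69, 1.70 and 0.62 in the same order for Timp1. With each mouse left out, log2 fold changes were −0.95 to 0.20 for Mmp9, −0.01 to 0.23 for Mmp15, −0.98 to 0.62 for Timp1 and −1.15 to −0.67 for Timp4.

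Counts of members at an unadjusted p under 0.05 were 2 in limma-voom, 2 with the replicate block, 2 with the tendon (Mmp2 and Timp3) and 1 with the fibroblast marker level (Timp4), and 2 to 4 with each mouse left out, with 2 without C2-/-Old mouse 1 or WTOld mouse 1. At an adjusted p under 0.05 they were 1 in DESeq2 and 0 to 1 with each mouse left out. Genes past 1.5-fold and the adjusted threshold numbered 38 in DESeq2 and 2 with the fibroblast marker level. They numbered 4 to 7 with each mouse left out (7 without WTOld mouse 2). Genes with an unadjusted p under 0.05 numbered 663 in the edgeR fit of genotype with all mice. They numbered 424 with the immediate early gene level and 506 to 983 with each mouse left out. ADAM and ADAMTS genes at that p numbered 2 in DESeq2, 2 with the replicate block, 2 with the tendon and 2 with the fibroblast marker level, 0 with the immediate early gene level and 0 to 2 with each mouse left out. Other Mmp genes numbered 1 without a filter, 1 with the tendon and 2 with the fibroblast marker level, and 0 to 2 with each mouse left out. Activators and other inhibitors numbered 3 to 5 with each mouse left out, and matrix substrates 6 to 13, 3 with the tendon and 0 with the fibroblast marker level. The TIMP share in the authors' TPM was 74.1% in WTOld and 69.1% in C2-/-Old. The causes were not tested beyond the mice and covariates named.

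Same-numbered mice showed no consistent likeness: their deviations correlated at 0.267, 0.042, −0.051 and 0.021, and only mouse 1 correlated best with its own number. Whether same-numbered mice shared an origin cannot be told from these values. With 4 mice per genotype and a Benjamini-Hochberg adjustment over 12542 genes, Timp2 did not pass in any of these fits. Mmp9, Mmp19 and Timp1 had standard errors of 0.46 to 0.66 on the log2 scale, against 0.15 for Mmp2, and Mmp3 entered only the fit with no filter.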

Other observations

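Summed CPM of the markers of other cell types overlapped between the genotypes. Endothelial markers summed to between 243 and 346 CPM in WTOld and between 246 and 319 CPM in C2-/-Old mice, and 3 of 7 were higher. Pericyte and smooth muscle markers summed to between 455 and 630 CPM in WTOld and between 609.95 and 688 CPM in C2-/-Old mice, and 7 of 7 were higher. Adipocyte markers summed to between 2.58 and 9.82 CPM and between 5.03 and 17.1 CPM, with 4 of 5 higher. Schwann cell markers summed to between 49.6 and 103 CPM and between 43.3 and 77.6 CPM, with 0 of 4 higher. Of all tested genes, 45.8% were higher. No marker of any list was at 0 in all mice.

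Of the other members, Mmp15 was over the 8 mice most like Pdzd7 (r = 0.987, rho = 0.57), Desi2 (r = 0.984, rho = 0.79) and Rnf170 (r = 0.976, rho = 0.50). WTOld mouse 2 was far below the rest for Mmp15, and rho was well below r in all 3 pairs. Frem2 (r = 0.957) and Xpnpep3 (r = 0.955) were among those most like Timp3. Among the scarce genes, Mmp19 was most like Prkcb (r = 0.966), the lipopolysaccharide-binding protein gene Lbp (r = 0.950) and the lectin Clec4a1 (r = 0.946). Mmp9 was most like Hist2h2ac (r = 0.950), the myeloid receptor Siglece (r = 0.939) and Pip5k1a (r = 0.937), and Timp1 most like Ogfod3 (r = 0.968), Serp1 (r = 0.961) and Napepld (r = 0.942).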
